A study of Drosophila melanogaster with 3 samples.

Results

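Mam-GFP peaks were described at 9 genes of the Notch pathway. They are Delta and Ser, which encode the ligands, neur and mib1, which encode the ligand ubiquitin ligases, and numb, spdo, dx, bib and sca, which act in receptor trafficking, asymmetric division or lateral inhibition. The 9 genes were listed by function, with earlier results of these data known, and stand among 13945 protein-coding genes on the main chromosome arms. The data came from chromatin immunoprecipitation and sequencing of whole Drosophila melanogaster embryos aged 0 to 24 hours, sexes pooled. The embryos carried a MiMIC transposon line with an eGFP exon in an intron of mam, so that the coactivator Mastermind was made as an eGFP fusion, and the precipitation used an anti-GFP antibody on chromatin sonicated to 200 to 800 bp. There was 1 group, Mam-GFP embryos, with 3 biological replicates per the labels. A control experiment that the labels name as possible was not analysed here. Whole embryos mix all cell types, so occupancy in few cells and weak occupancy in many cells cannot be told apart.

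Delta and Serrate sit on the signalling cell and activate the receptor Notch on its neighbour. The E3 ubiquitin ligases Neuralized and Mindbomb 1 mark the ligands for endocytosis, which generates the pull that opens the receptor to cleavage. The freed Notch intracellular domain then enters the nucleus and assembles with Mastermind and Suppressor of Hairless (Su(H)), which binds the DNA, at target genes. In asymmetric divisions of sensory organ precursors and neuroblasts, Numb goes to 1 daughter cell and lowers Notch signalling there by acting on the transmembrane protein Sanpodo and on Notch itself. Deltex is an E3 ligase that steers Notch through endosomes, Big brain is a membrane channel-like protein of the neurogenic group, and Scabrous is a secreted protein that shapes Notch signalling in proneural clusters.

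The 5 peak lists in the dm6 build were used. The reproducible list held the 5326 peaks that passed the irreproducible discovery rate (IDR) threshold, a filter for agreement of peak ranks between replicates. The same 5326 peaks led the pooled list of 24073 peaks by signal. The lists of replicates 1, 2 and 3 held 30000, 24267 and 24306 peaks and include background calls. Signal is the authors' peak height, and peaks are ranked by it within a list, with rank 1 the strongest and the percentile giving the share of the list at that rank or lower. Signal in the reproducible list ran from 110.3 to 5297 with a median of 195, and the pooled list went down to 34.98. The lists give no read numbers, and sequencing depth is therefore unknown. The summit was the midpoint of the interval for 68.6% of reproducible and 93% of pooled peaks, so that most positions are those of fixed-width calls. A gene's window is its body and 5000 bp on each side. Positions are dm6 (Release 6) coordinates, 1-based, and TSS stands for transcription start site.

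Of the 9 genes, 3 (numb, neur and bib) had a reproducible summit whose nearest TSS was their own, and the 201 bases around the strongest such summit of each are shown because these are the strongest peaks that lay nearer to a start of the gene than to a neighbour's. That of bib lies upstream of the gene body. Each is written 5' to 3' on the gene's strand in the dm6 build, numb chr2L:9449562-9449762 (plus strand), neur chr3R:9031944-9032144 (minus strand) and bib chr2L:9984390-9984590 (plus strand). Capitals mark matches on either strand to the 7 motifs searched. These were the Su(H) site (GTGGGAA or GTGAGAA), the DNA replication-related element DRE (TATCGATA), the BEAF-32 core (CGATA, which lies within the DRE), the GAGA factor repeat (GAGAG), the Zelda site (CAGGTAG), the proneural E box (CAGCTG or CAGGTG) and the M1BP core (GGTCACA).
numb: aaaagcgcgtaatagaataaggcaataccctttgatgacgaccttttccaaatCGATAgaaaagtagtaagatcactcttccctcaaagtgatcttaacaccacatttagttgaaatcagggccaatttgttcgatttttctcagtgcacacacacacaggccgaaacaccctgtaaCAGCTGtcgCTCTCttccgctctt
neur: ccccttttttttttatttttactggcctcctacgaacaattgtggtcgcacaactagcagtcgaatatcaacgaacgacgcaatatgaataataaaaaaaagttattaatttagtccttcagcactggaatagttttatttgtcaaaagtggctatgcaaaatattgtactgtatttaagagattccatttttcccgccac
bib: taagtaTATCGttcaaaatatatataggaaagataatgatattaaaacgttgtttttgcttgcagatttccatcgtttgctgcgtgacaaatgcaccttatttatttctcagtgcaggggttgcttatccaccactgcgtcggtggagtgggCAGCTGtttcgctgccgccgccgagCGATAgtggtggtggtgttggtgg
The numb and bib sequences, both at promoters, each held CAGCTG, at 79.5 and 54.5 bp downstream of the summit, and at least 1 CGATA. The numb sequence also held CTCTC, the reverse complement of GAGAG. The neur sequence, from an intron, held none of the 7 motifs. No Su(H) site lay within 100 bp of any of these 3 summits.

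Taken as a set, the 9 genes had a reproducible Mam-GFP summit in the window about as often as all protein-coding genes, without regard to window length. Of the 9, 5 had a reproducible summit in the window, neur with 3, mib1 and bib with 2 each and numb and dx with 1 each, while Delta, Ser, spdo and sca had none. Of all protein-coding genes 56.5% had one, and of the 3487 genes with the longest windows, to which 7 of the 9 belong, 70.8% had one. In the 5326 strongest peaks of each replicate, 3 of the 9 genes had a summit in replicate 1, 5 in replicate 2 and 5 in replicate 3, against 55.1%, 56.2% and 56.7% of all genes. Every one of the 9 genes had a summit in the pooled list, as did 86.6% of all genes. A reproducible summit lay within 1000 bp of an own TSS at 4 genes, neur, numb, dx and bib, against 29.7% of all genes. For 3 genes a reproducible summit had the gene's own TSS as the nearest, against 24.7% of all genes. Without replicate 2, or without replicate 3, keeping only the reproducible peaks found among the strongest of both other replicates left 5 summits at 3 genes, neur, mib1 and numb. Without replicate 1 it left 8 summits at 5 genes. The shares of all genes under these filters were not computed. With 9 genes, these counts are a description and not a test.

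**Figure D1:**
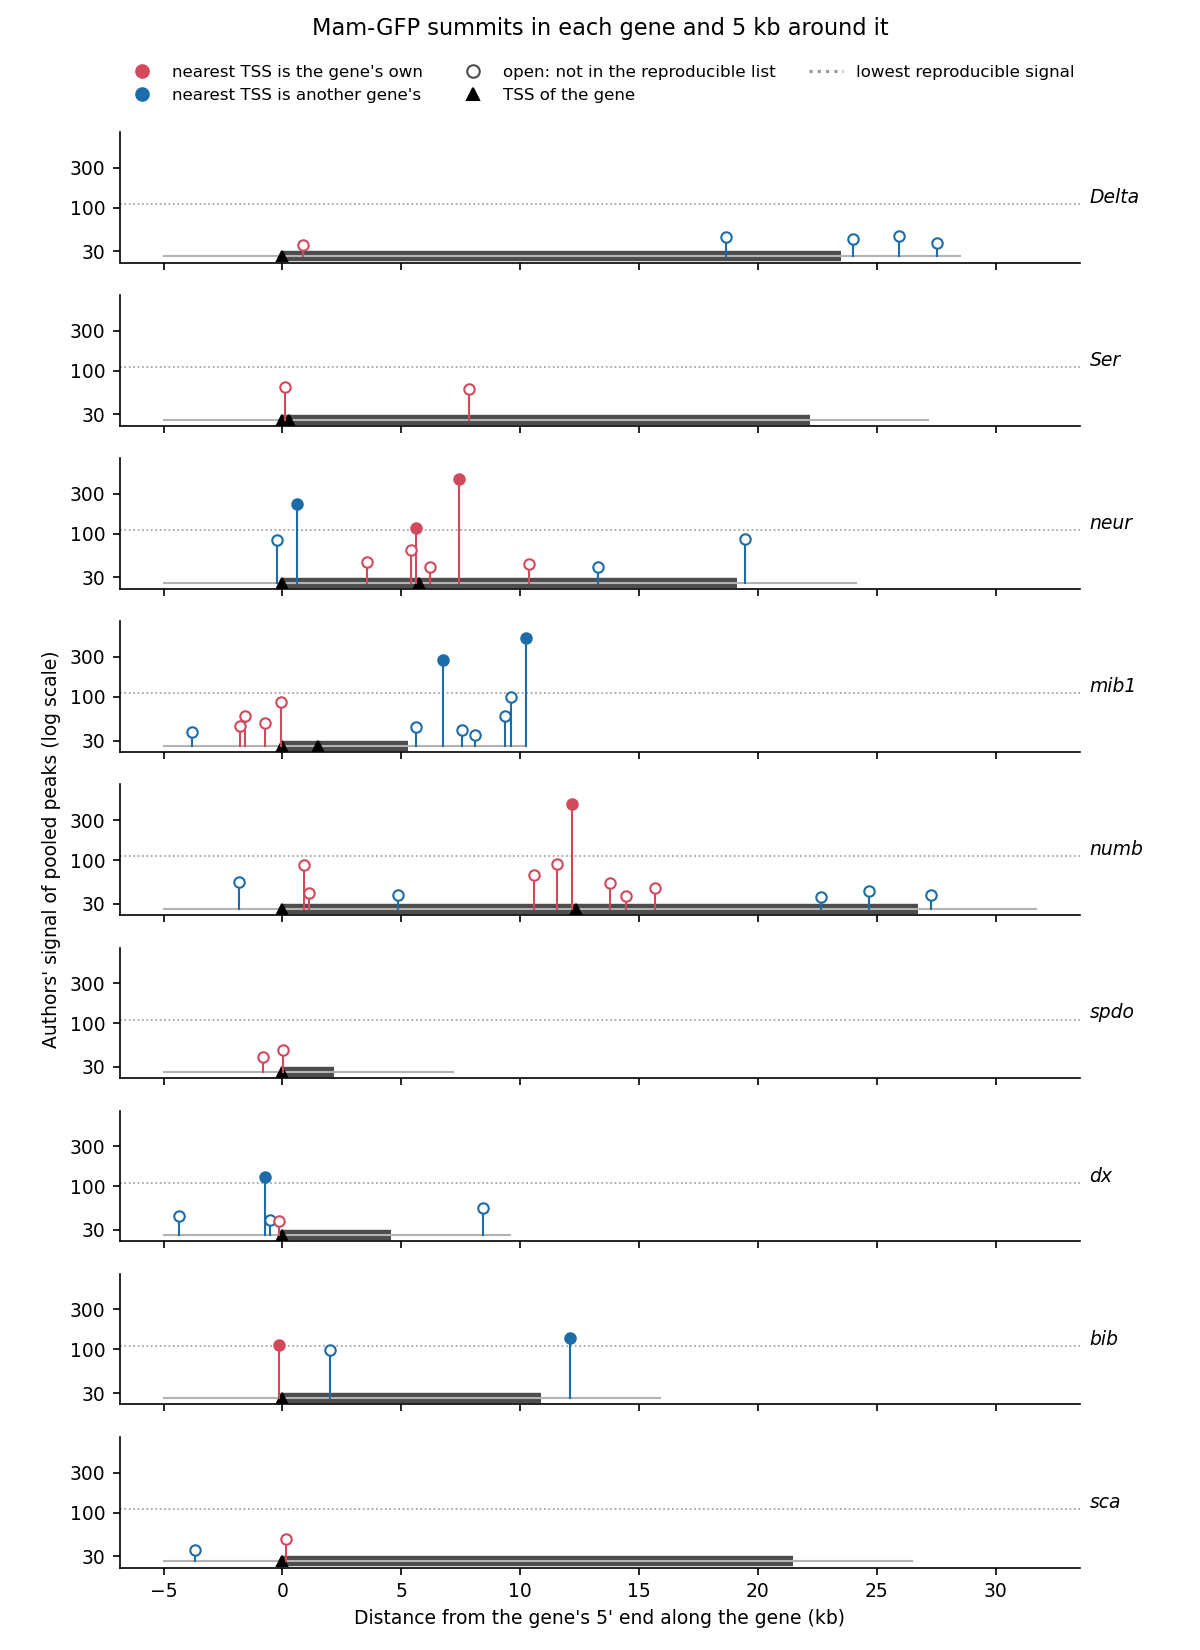
Summits of the pooled list in the window of each gene, with distance from the gene's 5' end along the gene in kb on the x axis and the authors' signal on a log y axis. Filled points are in the reproducible list, open points are not, colour shows whether the nearest TSS is the gene's own, triangles are the gene's TSSs and the dotted line is the lowest reproducible signal, 110.3. The tall points are at neur, mib1 and numb, and those of mib1 lie beyond its 3' end, in an intron of hzg and beside the start of mRpS31.

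The 9 windows held 9 reproducible summits over 225873 bp, 0.398 per 10 kb, against 0.635 per 10 kb over the windows of all genes and 0.511 over those 3487 longest. For the pooled list the density was 2.39 per 10 kb with 54 summits, against 2.38 for all genes. Because windows of neighbouring genes overlap, a summit can count more than once among all genes, while the 9 genes shared none. Over the windows of all genes, the list of 5326 reproducible peaks gave 14969 counts. The 9 genes differed widely among themselves. The pooled density ran from 0.622 per 10 kb at Ser and 0.636 at sca to 7.86 at mib1, with 1.44 at bib, 1.49 at Delta, 1.64 at spdo, 3.43 at both neur and dx and 3.54 at numb. With 13 pooled summits numb was matched by 3.05% of all genes, mib1 with 12 by 3.78% and neur with 10 by 6.06%. Among the 3487 genes with the longest windows, to which all 3 belong, those shares were 12%, 14.9% and 22%. The gene's own TSS was the nearest for 8 of the 13 summits at numb, 4 of the 12 at mib1 and 6 of the 10 at neur.

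The ligand genes had no reproducible summit, and their pooled summits were weak. Delta (FBgn0000463, 3R, 19302731 to 19326217, minus strand) has 1 TSS and 5 pooled summits in its window, 3 intergenic and 2 intronic, and none in the promoter class, which is within 500 bp of a protein-coding TSS. The strongest of the 5 had a signal of 46.22 and rank 15370, at 19300279 beyond the 3' end of the gene and nearest to the TSS of CG44174. The summit nearest to Delta's TSS, 870 bp downstream of it, had a signal of 35.85 and rank 23103, close to the bottom of the list. Only replicate 1 had a summit at that place, with a signal of 25.08 and rank 11379. The strongest summit nearest to Delta's TSS reached percentile 62.1 in replicate 1, 0.960 in replicate 2 and 33.7 in replicate 3, and it lay at a different position in each. No place near the start of Delta held a peak in all 3 replicates.

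Ser (FBgn0004197, 3R, 27172090 to 27194267, minus strand) has TSSs at 27193995 and 27194267, and its 2 pooled summits each had the gene's own TSS as the nearest. The promoter summit at 27194144, in the 5' UTR and 123 bp from the nearer start, had a pooled signal of 64.44 and rank 9775. The same stretch held a summit in every replicate, with signal 31.03 (rank 8005) in replicate 1, 20.08 (rank 10227) in replicate 2 and 14.46 (rank 22450) in replicate 3. The intronic summit at 27186433, 7562 bp from a start, had a pooled signal of 60.44 and rank 10555. Its replicate signals were 18.67, 13.57 and 20.64, with ranks 19183, 19215 and 12029. Both places recurred in the 3 replicate lists, below the strongest 5326 of each, and the order of the pair in replicate 3 was the reverse of that in replicates 1 and 2.

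The ligase gene neur (FBgn0002932, 3R, 9020348 to 9039471, minus strand) held the most reproducible summits of the 9 genes. Its TSSs are at 9039471 and, inside the gene, at 9033731. The strongest summit, at 9032044 (peak 9031939 to 9032140), lay in an intron 1687 bp downstream of the inner TSS, with a pooled signal of 450.7 and rank 706 of 5326. Its signal was 162 in replicate 1, 115 in replicate 2 and 166.6 in replicate 3, and the summits of the replicates fell within 6 bp. The percentiles of 98.1, 95.3 and 97.4 gave a mean of 96.9 ± 1.43 (SD, n = 3), so the intronic peak was near the top of every list. Of all protein-coding genes, 4.35% had a summit of their own of that pooled rank or better.

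A second neur summit, at 9033848 (peak 9033650 to 9034045), lay 117 bp upstream of the inner TSS with a pooled signal of 118.4 and rank 4911. Its signal was 32.02, 41.87 and 52.36 in replicates 1, 2 and 3, and its percentiles were 74.6, 81.5 and 84.6, a mean of 80.2 ± 5.14 (SD, n = 3). It was among the strongest 5326 peaks of replicates 2 and 3 but not of replicate 1. The third was at 9038854 (peak 9038656 to 9039051), where neur overlaps the 5' end of hyx on the opposite strand. It lay 94 bp from a hyx TSS and 617 bp from the outer neur TSS. The gene hyx encodes a subunit of the Paf1 transcription elongation complex. This summit had a pooled signal of 226.5 and rank 2176, and signals of 56.73, 85.13 and 71.59 in the replicates, and it was among the strongest 5326 in all 3. It lay nearer to the hyx start, and which of the 2 genes it serves was not tested. The remaining 7 pooled summits of the neur window ran from 39.55 to 86.41 in signal. The strongest of them was at the start of the neighbour tgo, which encodes a bHLH-PAS transcription factor. Another, at 9039681 (signal 83.13, rank 7305), lay 210 bp upstream of the outer neur TSS and 85 bp from a hyx TSS.

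The other ligase gene, mib1 (FBgn0263601, 3L, 16006552 to 16011812, minus strand), had reproducible summits in its window but not at its own start. The summit at 16001560 (peak 16001462 to 16001645) had the highest signal in any of the 9 windows, 511.8 (rank 545), and lay in an intron of the neighbour hzg, 3176 bp from the hzg TSS, 8749 bp from the nearest mib1 TSS and 8 bp inside the edge of the window. Its replicate signals of 152.8, 173.8 and 179.8 all stood at about the same place in their lists, at a percentile of 97.8 ± 0.0724 (SD, n = 3). The summit at 16005072 (signal 276.4, rank 1645) lay 121 bp from the TSS of mRpS31, which encodes a mitochondrial ribosomal protein, and 5237 bp from the nearest mib1 TSS. Its replicate signals were 88.5, 103.4 and 85.28.

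At the outer mib1 TSS itself, 16011812, the pooled list held a summit 57 bp upstream with a signal of 86.79 and rank 6932, below the reproducible threshold. It was present in every replicate, with signal 22.37 (rank 13883) in replicate 1, 41.09 (rank 4591) in replicate 2 and 26.83 (rank 8228) in replicate 3. Replicate 2 ranked it among its strongest 5326 peaks and the other replicates did not. No list held a summit within 1000 bp of the inner TSS at 16010309.

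**Figure D2:**
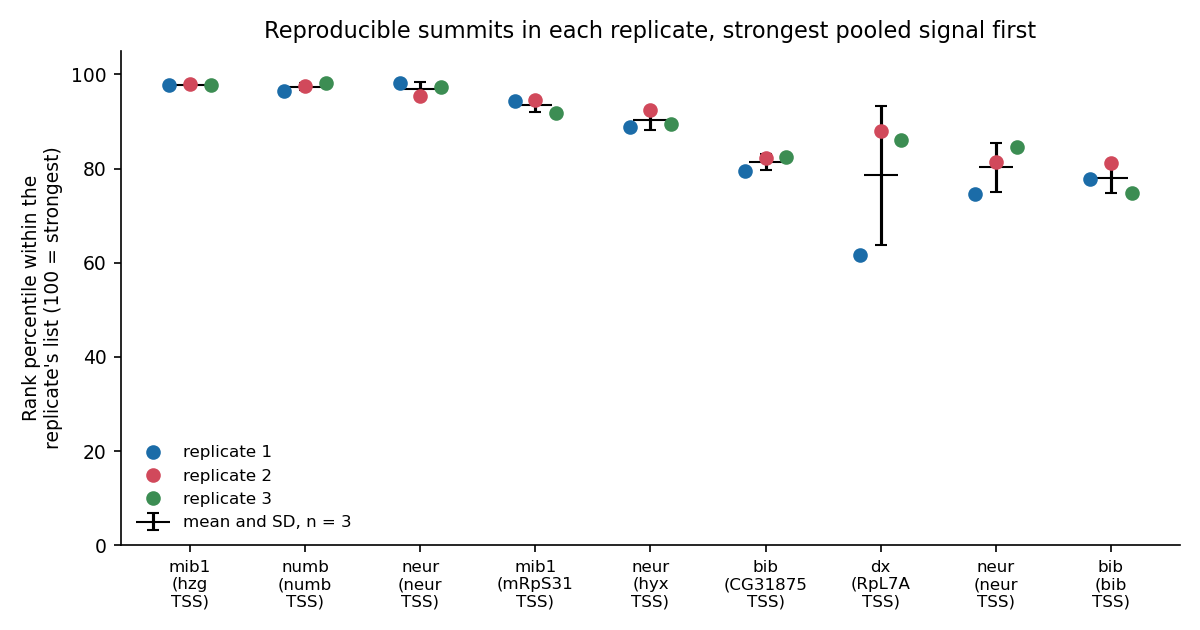
Rank percentile of the 9 reproducible summits in each replicate's list (y axis, 100 is the strongest peak), ordered along the x axis by pooled signal and labelled by gene and, in brackets, the gene of the nearest TSS. Points are replicates and black bars are the mean and SD (n = 3); the 5 strongest summits lie at or above percentile 88.7 in every replicate, and the dx summit spreads most, with an SD of 14.7.

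The strongest summit of a gene's own in the set was at numb (FBgn0002973, 2L, 9437469 to 9464184, plus strand). It lay at 9449662 (peak 9449499 to 9449759), 168 bp upstream of the inner TSS at 9449830 and so within an intron of the longer transcripts, with a pooled signal of 465.5 and rank 655. Signal was 118.3 in replicate 1, 161.3 in replicate 2 and 197.5 in replicate 3, at a percentile of 97.4 ± 0.802 (SD, n = 3), and the replicates' summits fell within 5 bp. Of all protein-coding genes, 4.07% had an own summit of that pooled rank or better. The outer TSS at 9437469 had no reproducible summit. Its nearest pooled summit, 898 bp downstream, had a signal of 88.29 and rank 6793, and signals of 40.79, 25.36 and 28.25 in the replicates. Most of the other 11 pooled summits of numb were intronic, with signals from 36.03 to 90.24.

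The partner of Numb, spdo (FBgn0260440, 3R, 30476684 to 30478849, plus strand), lies inside PH4alphaEFB, a prolyl hydroxylase gene on the same strand, and had no reproducible summit. The pooled list held a summit 26 bp from the spdo TSS (signal 47.56, rank 14703) and another 825 bp upstream (signal 39.58, rank 19745). The summit at the TSS had a signal of 14.98 (rank 27909) in replicate 1 and 15.41 (rank 15458) in replicate 2, and replicate 3 had no summit in the window at all.

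The Notch trafficking ligase gene dx had its reproducible summit at a neighbour's start. The summit in the window of dx (FBgn0000524, X, 6533999 to 6538575, plus strand) lay at 6533277, in the 5' UTR of the divergent ribosomal protein gene RpL7A, 21 bp from its TSS and 722 bp upstream of the dx TSS. It had a pooled signal of 129.7 and rank 4425. Its signal was 24.92 in replicate 1, 59.27 in replicate 2 and 56.83 in replicate 3, with percentiles of 61.6, 87.9 and 86.0, so that replicate 1 ranked it far lower than the other replicates. The summit nearest to the dx TSS, 161 bp upstream, had a pooled signal of 38.64 and rank 20537.

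At bib (FBgn0000180, 2L, 9984645 to 9995538, plus strand) a reproducible summit lay at 9984490, 155 bp upstream of the TSS and over the antisense-strand gene lncRNA:CR13130. With a pooled signal of 114 and rank 5131 it was just inside the threshold. Its signals were 35.02, 41.13 and 34.23, its percentile was 77.9 ± 3.17 (SD, n = 3), and the replicates' summits fell within 8 bp, but only replicate 2 had it among its strongest 5326. The second reproducible summit, at 9996758 past the 3' end of bib, lay 186 bp from a TSS of CG31875, with a pooled signal of 135.1, rank 4219 and replicate signals of 36.95, 43.4 and 47.05. An intronic bib summit at 9986664, with a signal of 97.48 and rank 6097, was just outside the threshold, as was a summit in the hzg intron of the mib1 window with a signal of 100.9 and rank 5884.

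**Figure D3:**
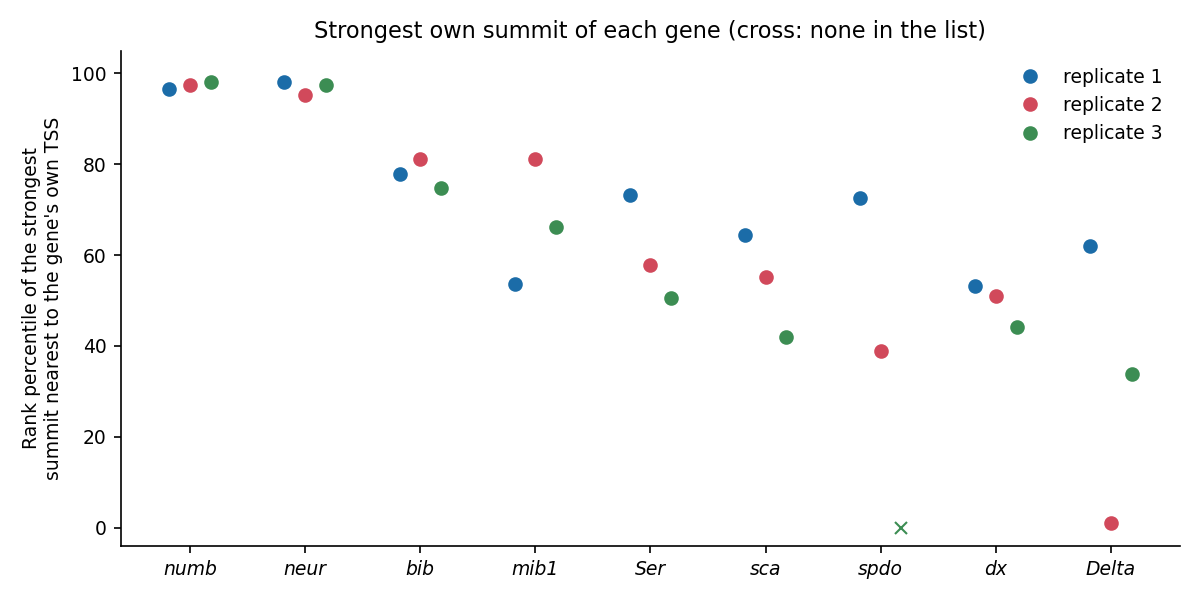
Percentile of each gene's strongest summit whose nearest TSS is its own (y axis), in each replicate's list (points), with genes ordered by pooled signal on the x axis and a cross where a list had none. The points of numb and neur lie at or above percentile 95.3, those of bib between 74.8 and 81.1, and those of Delta between 0.960 and 62.1; for Delta, Ser, spdo, dx and sca the replicates' summits are not all at the same place.

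In the order of the strongest own summit by pooled rank, numb (655) and neur (706) came first, then bib (5131), mib1 (6932), Ser (9775), sca (14172), spdo (14703), dx (20537) and Delta (23103). In replicate percentiles numb (97.4 ± 0.802) and neur (96.9 ± 1.43) did not differ beyond their spread, and bib followed at 77.9 ± 3.17 (SD, n = 3 each). The percentiles of mib1 (67.0 ± 13.7), Ser (60.6 ± 11.6), sca (53.8 ± 11.3), dx (49.5 ± 4.67) and Delta (32.3 ± 30.6) overlapped with their neighbours in this order (SD, n = 3 each), and spdo had values in 2 replicates, 72.5 and 38.9. For Ser the strongest own summit was at the promoter in replicates 1 and 2 and in an intron in replicate 3, and for dx, sca, Delta and spdo its position also differed between replicates, so these values do not follow 1 place. Of all protein-coding genes, 58.1% had a pooled summit of their own, and 24.1% had one ranked as high as that of bib.

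All 9 reproducible summits overlapped a peak in the whole list of every replicate, as did 5302 of all 5326 reproducible peaks. Of the 9, 5 were among the strongest 5326 of all 3 replicates, against 73.5% of the whole reproducible list. The reproducible list was made from these same replicates, so support from them is partly built in. Of the 9 summits 7 were in the promoter class, 77.8% (95% exact binomial interval 40% to 97.2%), against 54.6% of the whole list, and the other 2 were intronic. Of the 7 promoter summits, 4 had a neighbour's TSS as the nearest (hyx, mRpS31, RpL7A and CG31875), and the one beside hyx also lay within neur. Intervals cover counting error only. Among the 54 pooled summits, 19 were in the promoter class, 35.2% against 32.3% of the whole list, and 26 had a TSS of one of the 9 genes as the nearest.

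Summed over these windows, matches to the Su(H) site were denser than over all genes, though not at Ser, dx, mib1 and spdo. The share of the matches near a summit was close to the background. The 9 windows held 76 sites, 3.36 per 10 kb against 2.24 per 10 kb in the windows of all genes. Delta had the most, 22 sites or 6.57 per 10 kb, followed by neur with 13 (4.46), numb with 15 (4.09), sca with 9 (2.86), bib with 5 (2.39), Ser with 7 (2.18), dx with 2 (1.37), mib1 with 2 (1.31) and spdo with 1 (0.822). Of the 76 sites 1 (1.32%) lay within 100 bp of a reproducible summit, against 1.59% of the sites in all windows. With that one included, 5 (6.58%) lay within 100 bp of a pooled summit, against 5.44%. Delta, with the highest site density, had no reproducible summit. Windows of neighbouring genes overlap, so a site can count more than once among all genes. This background was not matched for window length.

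The 5 sites near a pooled summit are shown because they are the places in these windows where a match to the Su(H) motif and a summit came together. Each is 27 bases on the gene's strand in the dm6 build with the site in capitals. The Delta pair is at chr3R:19298702-19298728 and chr3R:19307555-19307581, the neur site at chr3R:9038928-9038954, the mib1 site at chr3L:16003632-16003658 (minus strand for all 4) and the numb site at chr2L:9451830-9451856 (plus strand).
Delta, beyond the 3' end: ctcaacggaaTTCTCACcatttaatta
Delta, intron: ttgtttgatgGTGGGAAtattttaata
neur, near hyx: gtttgtgaccTTCCCACcacccacaca
mib1, in hzg: caatataattGTGGGAAtaagttagtt
numb, intron: actccaacttTTCTCACatgcctttcg
The neur site lay 87 bp from the reproducible summit beside hyx (signal 226.5). The other 4 lay beside weak summits, those of Delta with signals of 37.3 and 44.95 at 48 and 6 bp, that of mib1 with 35.29 at 54 bp and that of numb with 37.13 at 79 bp. The intronic Delta site was 18649 bp from the Delta TSS, and summits lay there in replicates 1 and 2 with ranks 17469 and 11152.

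**Figure D4:**
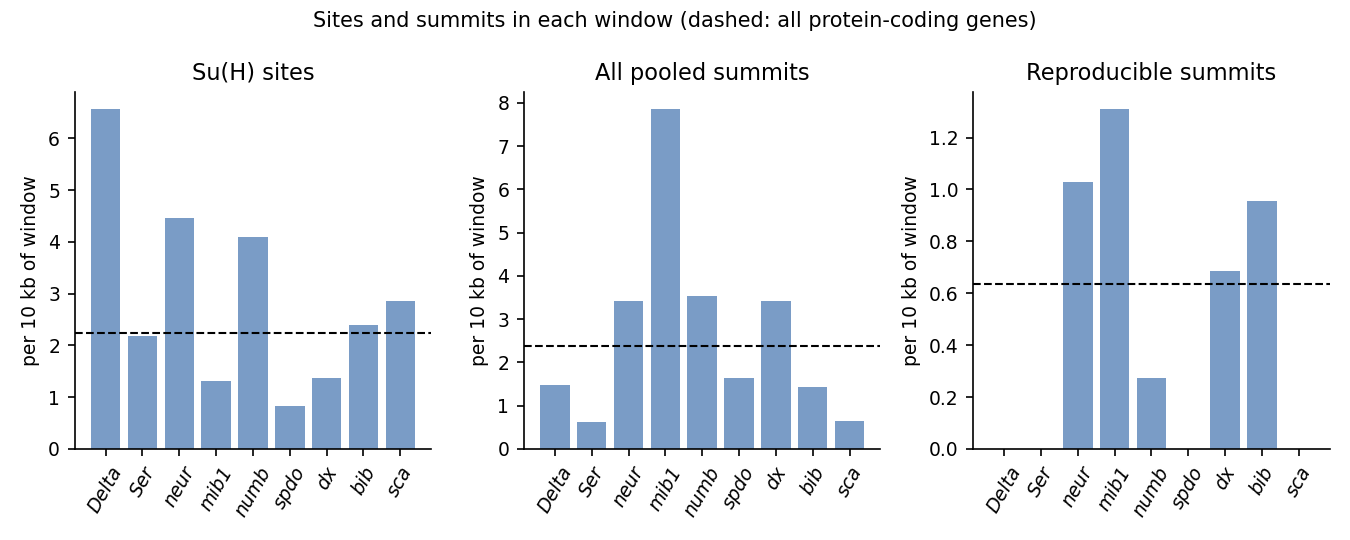
Su(H) sites, pooled summits and reproducible summits per 10 kb of each gene's window (bars, y axes starting at 0), with the value over all protein-coding genes as a dashed line (2.24, 2.38 and 0.635). Delta has the highest bar for sites (6.57) and none for reproducible summits, while mib1 has the highest bars for pooled (7.86) and reproducible (1.31) summits. Of the mib1 summits, 4 of 12 pooled and 0 of 2 reproducible ones had a mib1 TSS as the nearest. Windows of all genes overlap, so the dashed values can count a site or summit more than once.

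Within 100 bp of the 9 reproducible summits, CGATA was found at 5, the proneural E box at 4, GAGAG at 3, and the Su(H) site and the M1BP core at 1 each, and the DRE and the Zelda site at none. In the whole reproducible list the shares were 34.5%, 15.7%, 21.9%, 5.13%, 4.39%, 5.82% and 0.958% in the same order. The 4 summits with an E box were the promoter summit of neur, the one beside hyx, and those of numb and bib. The 3 summits that held none of the 7 motifs were the intronic one of neur and both in the mib1 window. A match is a description of the letters and not of a bound factor. With only 9 summits, a difference of these shares from the whole list was not tested.

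The gene sca (FBgn0003326, 2R, 12780541 to 12802010, plus strand), which encodes Scabrous, had no reproducible summit. Its promoter summit, 147 bp downstream of the TSS, had a pooled signal of 48.76 and rank 14172. Only replicate 1 had a summit close to it, with a signal of 26 and rank 10695. The strongest own summit of replicate 2 lay 992 bp and that of replicate 3 lay 674 bp from the TSS, with signals of 19.24 and 18.7. The other pooled summit in the window, with a signal of 35.5, was nearest to lncRNA:CR45266.

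The other genes of the pathway were counted in 4 lists with 53 genes in all. Of these, 44 (83%) had a reproducible summit in the window and 34 (64.2%) had one within 1000 bp of a TSS. The shares of all protein-coding genes were 56.5% and 29.7%. With the strongest peaks of replicates 1, 2 and 3 the number with a summit in the window was 42, 44 and 45. Of the 10 ligand endocytosis genes 8 had one in the window and 7 near a TSS, the strongest near a TSS being those of Arp3, a subunit of the actin nucleator (signal 686.7, with msk as the gene of the nearest TSS), the clathrin uncoating factor gene aux (249.3), WASp, an activator of Arp2/3 (247.6), and the recycling endosome gene Rab11 (158.2). Of the 12 receptor trafficking genes 10 had one in the window and 9 near a TSS, led by the endosomal sorting gene l(2)gd1 (1257), the clathrin adaptor gene AP-2alpha (804), the early endosome gene Rab5 (233.3) and avl, listed as Syx7, a syntaxin gene (223.8).

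Of the 18 other asymmetric division genes 15 had a reproducible summit in the window and 11 near a TSS. The strongest near a TSS were at brat, a translational repressor that segregates into 1 daughter of the neuroblast (906.2), and jar, the myosin VI gene (621.4). Next came the polarity gene par-6 (565, with CG8188 as the gene of the nearest TSS) and the scaffold gene dlg1 (452.3). The 3 without one in the window, named after their values were seen, were mira and pon, which encode adaptors that carry determinants to the basal cortex, and the cortical polarity gene l(2)gl. Of the 13 receptor and nuclear core genes 11 had one in the window and 7 near a TSS. These lists were chosen with earlier results of these data known, and the share of a list is read beside the background only. The background was not matched to the lists for window length.

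**Figure D5:**
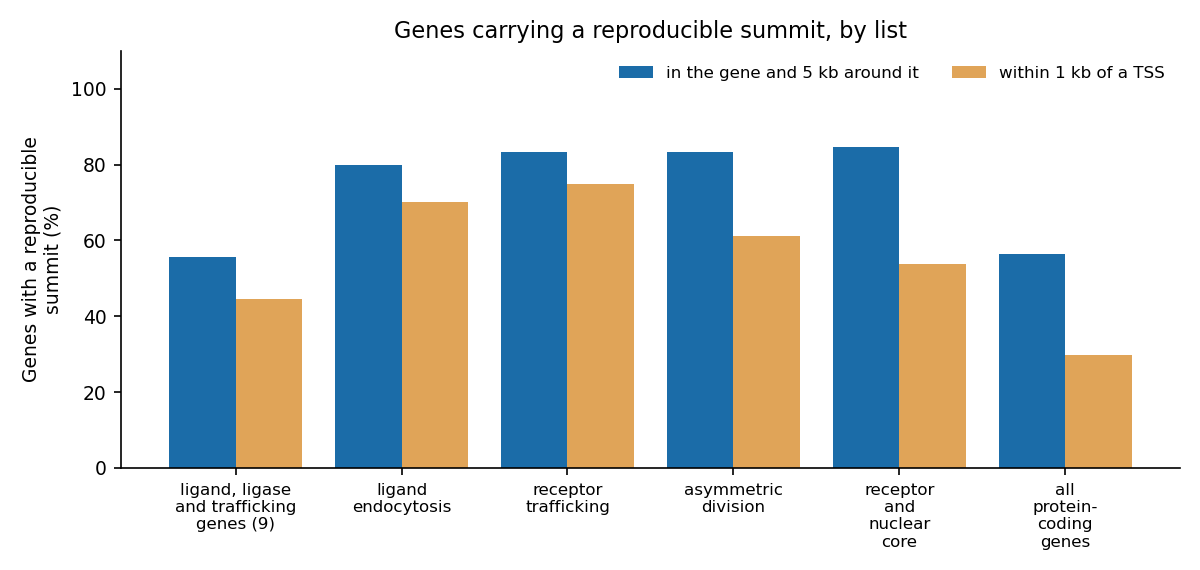
Percentage of genes with a reproducible summit in the gene and 5 kb around it (blue) and within 1 kb of a TSS (orange), for the 9 genes, for 4 lists of 10, 12, 18 and 13 genes and for all 13945 protein-coding genes, on a y axis starting at 0. The 9 genes are near the background for the window, 56.5%, while the 4 lists lie between 80% and 84.6%. The background is not matched for window length, and among the 3487 genes with the longest windows the share was 70.8%.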

How the data were processed

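Mam-GFP chromatin immunoprecipitation was done on 3 biological replicates of 1 group of embryos. Per the notes deposited with the samples, the authors made peak and background lists for each replicate and for the pool as input for the IDR procedure, and derived the reproducible list from them. The deposited signal is the authors' peak height, whose scaling is not stated. The deposited −log10 q-value reached at most 4 in the pooled list, so peaks were ranked by signal. The deposited offset in each peak gave its summit. For the peak caller, aligner, versions and thresholds, nothing is stated (not given in the sources used here). Read depth is unknown. The 5 dm3 lists were not used.

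Summits were placed on the dm6 assembly (Release 6) by means of Ensembl release 115 (BDGP6.54), which has 13945 protein-coding genes on the main arms. The nearest TSS was sought over 23581 TSSs of every biotype, and location classes (promoter within 500 bp, then 5' UTR, coding, 3' UTR, intron, intergenic) used the 19252 protein-coding TSSs. All names matched, 1 through a synonym (avl as Syx7). Replicates were compared through whole lists and through their 5326 strongest peaks, with an overlap of at least 1 bp. A percentile's SD is over 3 replicates. Motifs were sought on both strands within 100 bp of a summit, a window of 201 bp. With 1 group there was no contrast and no test. The named genes were the 9 genes, the genes with the TSS nearest to a reproducible summit in their windows, and up to 4 genes of each pathway list with the strongest reproducible signal within 1000 bp of a TSS; other genes are named where a value needed them. The genes and lists were chosen with earlier results of these data known. The counting steps were tested on simulated data. Python 3.11.15, numpy 2.4.6, pandas 2.3.3, scipy 1.17.1 and matplotlib 3.10.9 were used. Alternatives were other windows, distances, overlap rules and motif windows, only the stronger reproducible peaks, and leaving out each replicate.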

Additional observations from a re-analysis of the deposited data

How the results depend on the processing

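Of 86 alternative values, 57 stayed near the reported value and 29 moved. Near means within 1.5 times for counts and densities, and for a gene's signal within 1 SD of its percentile over replicates. The label reversed was given to 0, because these counts and signals could not receive it. A gene that lost its summit has no signal value among the 86. Removing only weaker peaks leaves a gene's strongest signal unchanged, so such values stayed near by construction. With only the peaks above the median signal of the reproducible list, 3 of the 9 genes had a summit, with 5 summits in all, 2 genes within 1000 bp of an own TSS, 3 promoter-class summits, 2 nearest to an own TSS, and 0.221 per 10 kb. In the gene body alone (0 bp), 2 genes had 4 summits, 3 of them in the promoter class, and 25 of the 53 pathway genes had one. The share of all protein-coding genes with a summit was not computed for the gene body or for the other settings here. Whether such changes are particular to these genes is therefore unknown. With 1000 bp around the gene the strongest bib signal was 114, and with 10000 bp it was 296.3, and there were 16 summits, 11 in the promoter class. Against the whole replicate lists all 9 summits were supported by 3 replicates, as were 5302 of all 5326 reproducible peaks. With a motif window of 50 bp no summit, 0, had a Su(H) site. Leaving out each replicate in turn gave 3 to 5 genes with a summit and 5 to 8 summits. There were 2 to 3 genes within 1000 bp of an own TSS and 3 to 6 promoter-class summits. Between 2 and 3 summits were nearest to an own TSS, and the density was 0.221 to 0.354 per 10 kb. All summits left (8 without replicate 1, 5 without replicate 2 or 3) were supported by the replicates kept, because the filter itself required that support. No value could be given for dx and bib among the stronger peaks or without replicate 2 or 3, for mib1, dx and bib at 0 bp, and for mib1 at 1000 bp. The cause of these changes was not tested. No paired analysis was possible because the series has 1 group and no comparison between groups. Depth is unknown, so a missing summit does not show that Mam-GFP was absent.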
